A study of Mus musculus with 16 samples.

Results

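The genes described here encode the main conjugating enzymes: UDP-glucuronosyltransferases (UGT), glutathione S-transferases (GST) with the membrane-bound MGST, sulfotransferases (SULT) and the NAT8 family of N-acetyltransferases. They were taken from the deposited expression table by symbol, as every symbol that starts with Ugt1, Ugt2, Ugt3, Sult, Mgst or Nat8, or with Gsta, Gstm, Gstp, Gstt, Gstk, Gsto or Gstz followed by a digit. This gave 75 genes of 23935 symbols. The symbol rule used no measured value, but the families were chosen with earlier results of these data known. Of the 75 genes, 49 reached 1 TPM (a length-corrected transcript abundance, scaled to the same total in each library) in at least 4 of the 16 libraries and were tested. Another 13 were listed at 0 in every library, and 13 were above 0 but too low to test.

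The libraries were made from whole kidney of wild-type mice in 4 groups of 4. The groups received PBS, cisplatin, cisplatin with nicotinamide mononucleotide (NMN), or cisplatin with nicotinamide riboside (NR). NMN and NR are precursors of NAD and were injected ahead of cisplatin, and kidneys were collected 3 days after cisplatin. No group received a precursor alone. The sources used here give no strain, age or dose and do not say that each library is a separate animal, so a p-value measures only how these libraries spread, which may be technical.

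Conjugating enzymes attach a polar group to drugs, hormones and electrophiles so that they can be excreted. UGTs transfer glucuronic acid from UDP-glucuronate, SULTs transfer sulfate from its activated donor PAPS, and GSTs transfer glutathione. In the kidney, glutathione conjugates are trimmed at the brush border of the proximal tubule by γ-glutamyltransferase and dipeptidases, and NAT8 acetylates the resulting cysteine conjugate to a mercapturic acid. Cisplatin enters proximal tubule cells and can itself be conjugated to glutathione.

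Markers of kidney cell types were present in all groups and moved with treatment. The summed TPM of 15 proximal tubule markers was 50574 to 57769 in PBS, 4525 to 7679 with cisplatin alone, 39992 to 47711 with NMN and 34139.6 to 41173 with NR, and 15 of 15 were called lower with cisplatin. The sum of 5 tubule injury markers was 3.28 to 14.9 in PBS and 4036 to 4469.8 with cisplatin, and all 5 were called higher. Of 6 tested adipose markers, 6 were called higher with cisplatin, with sums of 0.08 to 60.1 in PBS, 117 to 267 with cisplatin, 2.33 to 53.7 after NMN and 3.15 to 230.5 after NR. Of 10 hepatocyte markers 6 were tested, of which Apoc3 was called higher and 4 were called lower. Their sum was 121 to 199.7 in PBS and 199 to 377 with cisplatin, and albumin was at 2.84 to 4.38 TPM in PBS and 0.14 to 1.83 with cisplatin. Markers of other kidney cells moved in both directions. Of 3 distal convoluted tubule markers, 2 were called lower, with sums of 279.9 to 466.7 in PBS and 7.88 to 21.1 with cisplatin. Of 5 thick ascending limb markers, 3 were called lower, with overlapping sums of 580.9 to 1516 in PBS and 267.9 to 723.7 with cisplatin. All 5 for endothelium, 4 for podocytes and 5 for intercalated cells were called lower, with sums of 88.8 to 164, 53.7 to 120.5 and 133 to 195 in PBS and 13.9 to 49.1, 6.63 to 47.7 and 57.3 to 78.9 with cisplatin. The sum of 4 principal cell markers was 236 to 290.4 in PBS and 389 to 484 with cisplatin, with Aqp2 called higher and 2 lower. That of 5 macrophage markers was 34.1 to 72.5 and 114 to 159, with Cd68 called higher and Csf1r lower. In bulk tissue, fewer cells of a type and less RNA per cell cannot be told apart, and the part of cell composition in the results below was not tested. Since TPM does not keep the number of reads, the depth of each library is unknown.

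Seen by family, the libraries of cisplatin kidney held little NAT8, UGT2 and UGT3 transcript and more GST mu, pi and alpha transcript than those of PBS kidney. Summed NAT8 TPM was 1241 ± 93.4 (SD, n = 4) in PBS, 88.5 ± 8.05 with cisplatin alone, 989 ± 52.1 with NMN and 865 ± 171 with NR. In the same order, summed UGT2 was 570.5 ± 44.6, 15.7 ± 2.91, 445 ± 90.6 and 388 ± 53.8. Summed UGT3 was 744 ± 162, 49.9 ± 16.5, 546 ± 129 and 477 ± 105. For these 3 families the cisplatin mean was therefore 7.13%, 2.74% and 6.71% of the PBS mean.

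The sums of GST mu, pi and alpha lay above PBS, and those of GST theta and of kappa, omega and zeta together lay below. Within the pooled sum, Gsto1 of the omega class rose, from a mean of 42.2 TPM in PBS to 79.6 with cisplatin. Summed GST mu TPM was 666 ± 84.5 (SD, n = 4) in PBS and 1350.0 ± 136 with cisplatin, GST pi was 460.4 ± 53.3 and 808 ± 59.2, and GST alpha was 403 ± 76.6 and 608 ± 16.9. GST kappa, omega and zeta together went from 419 ± 32.7 to 224 ± 28.1 and GST theta from 381 ± 31.7 to 315 ± 13, which is 53.4% and 82.7% of the PBS mean, while MGST was at 131%. The PBS and cisplatin libraries did not overlap for any of these 9 sums. UGT1 and SULT sums were 68.3% and 66.6% of the PBS mean with cisplatin. The ratio of summed GST to summed UGT was 1.25 to 2.01 in PBS, 12.7 to 15.5 with cisplatin alone, 1.71 to 2.74 with NMN and 2.01 to 3.09 with NR. Family sums were not tested.

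**Figure D1:**
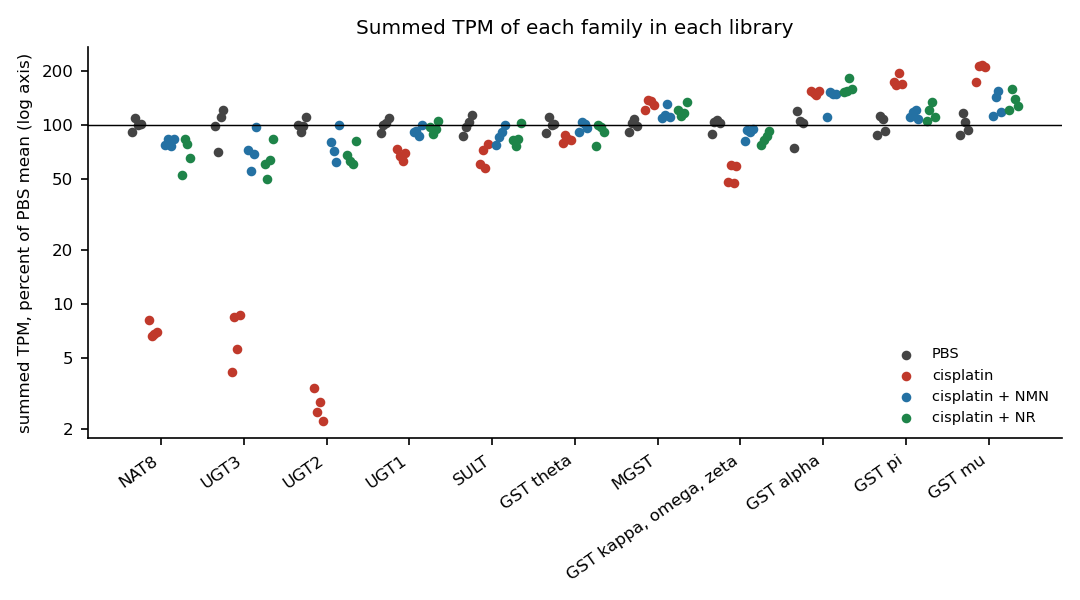
Summed TPM of each family in each library as a percentage of the PBS mean, on a log axis, with 1 point per library and 4 libraries per group. With cisplatin, NAT8, UGT2 and UGT3 lie between 2.23% and 8.68%, and GST mu lies between 172% and 216%.

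Gene by gene, 13 of the 49 tested genes were called higher and 19 lower in cisplatin than in PBS (limma on log2(TPM + 1), Benjamini-Hochberg adjusted p under 0.05 over 12960 genes). Of all tested genes, 40.7% were called higher and 18.6% lower, so that either call was made for 59.4%. The groups did not overlap for 10 genes that were higher in cisplatin, against 35.3% of all genes, and for 19 that were lower, against 15.6%. The median log2 change was -0.24 over the 49 genes and 0.27 over all tested genes. Median-of-ratios scaling moved the median of all genes to 0.00 and the counts to 11 higher and 25 lower, which took the higher share of the calls from 40.6% to 30.6%. Log2 changes below are on the TPM scale, carry that general shift, and understate the change of genes with low values because 1 TPM is added.

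**Figure D2:**
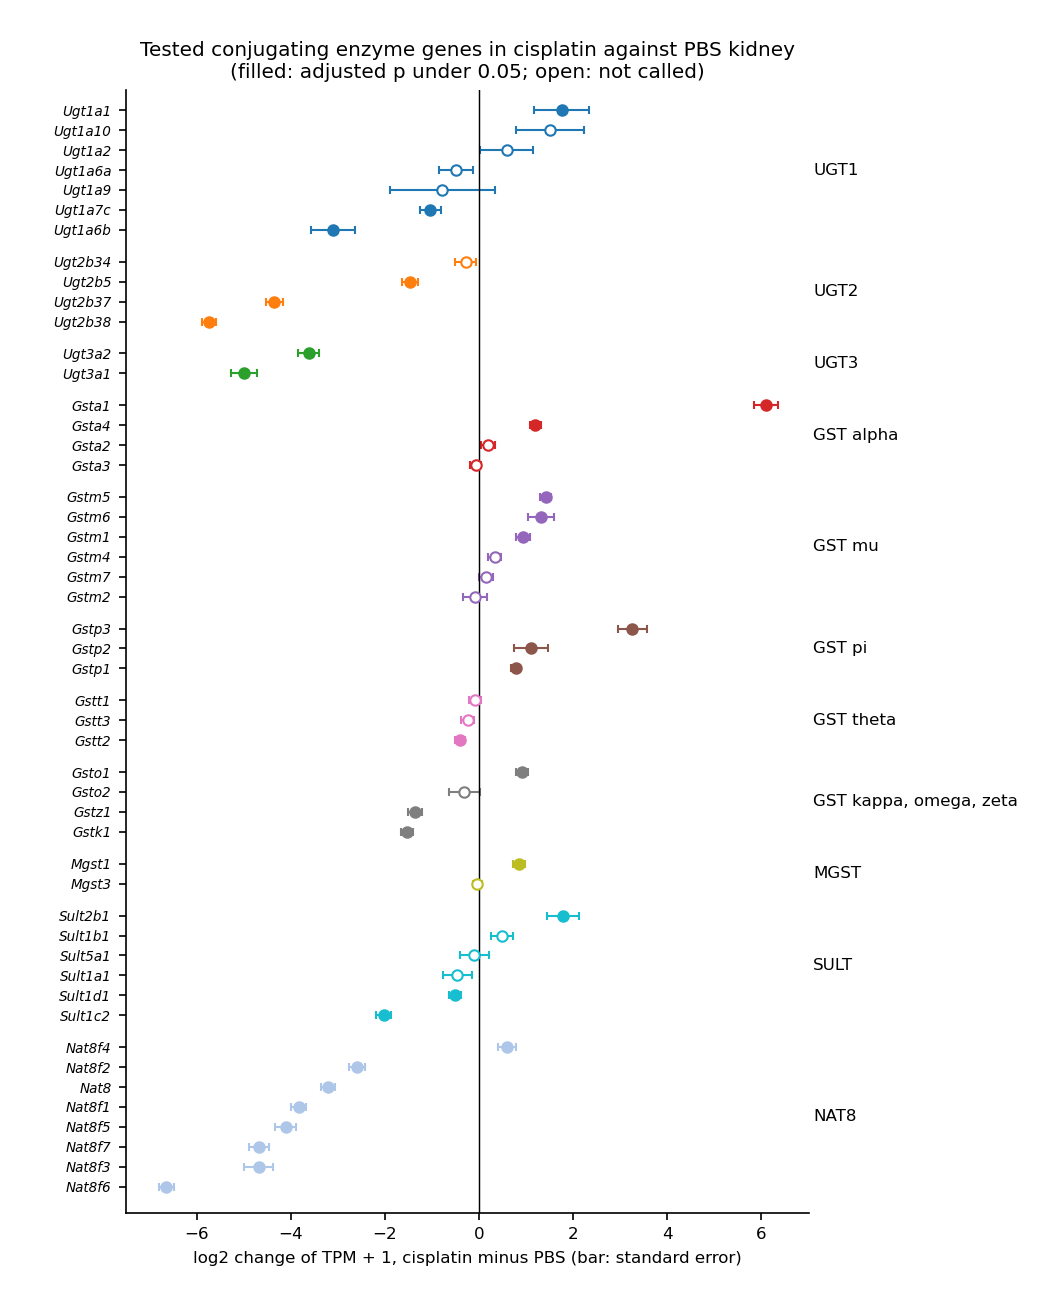
Difference of log2(TPM + 1), cisplatin minus PBS, for each of the 49 tested genes, with its standard error, grouped by family and with filled points for called genes and open points for the others. The differences run from -6.64 for Nat8f6 to 6.1 for Gsta1.

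In the NAT8 family 7 of 8 tested genes fell with cisplatin, and 1, Nat8f4, was called higher. Nat8, the cysteine conjugate N-acetyltransferase, had 259, 271, 254 and 275 TPM in PBS and 24.5, 35.6, 20.6 and 32.7 with cisplatin. It had 214, 219.9, 224 and 228 TPM with NMN and 157, 218, 225 and 161 with NR. All NMN and NR libraries lay above cisplatin and below the lowest PBS library, and NR libraries 1 and 4 were the lowest of these 8. The log2 change with cisplatin was -3.21 ± 0.15 (SE; adjusted p = 4.58e-12) by limma.

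Nat8f1 was the most abundant of the family and held 52% of its summed TPM in PBS and 50.8% with cisplatin. Its TPM was 582, 712, 638 and 649 in PBS, 59.1, 34.8, 49.4 and 37.9 with cisplatin alone, 498, 538, 476 and 551 with NMN and 327, 556, 532 and 427 with NR. It fell by 3.83 on the log2 scale with cisplatin (limma adjusted p = 1.79e-12), and no precursor library reached the PBS range. In GENCODE, 35.5% of its exonic bases lie opposite exons of Tprkb, whose mean TPM was 73.2 in PBS and 36.6 with cisplatin. The sources used here do not say whether reads were counted by strand, so reads of the pair cannot be told apart.

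Nat8f6 had the largest fall among the 49 genes. Its TPM was 144, 201, 213 and 185 in PBS and 0.74, 0.49, 1.48 and 0.83 with cisplatin, and 125, 148, 139 and 139 with NMN and 94.9, 139, 121 and 114 with NR. The change with cisplatin was -6.64 ± 0.16 (SE; adjusted p = 6.94e-16) by limma, and the cisplatin libraries were separated from all 12 others. Nat8f7 and Nat8f3 each fell by 4.68 on the log2 scale, Nat8f5 by 4.11 and Nat8f2 by 2.6. Nat8f3, Nat8f6 and Nat8f7 are 99.1% to 99.6% identical in coding sequence, so the split of reads among them is uncertain. Summed into 1 feature they changed by -6.66, adjusted p = 1.52e-14 (limma).

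The near-copies also share sequence before their start sites. RefSeq promoters were compared over the 250 bases before a start, with the most alike pair of listed starts. Those of Nat8f6 and Nat8f7 are 91.5% identical, and those of Nat8f6 and Nat8f4 are 51.4% identical. Promoters of the other NAT8 genes that fell were not compared. Gstp1 and Gstp3, which were both called higher with cisplatin, are 50.7% identical there, so these values do not link likeness to direction. The 76 bases from base -250 are shown for Nat8f6 and Nat8f7, with the longest run shared by both, 68 bases, in capitals. They come from RefSeq on GRCm38.p6 at chr6:85810052-85810127 and chr6:85708736-85708811, both on the minus strand.
Nat8f6: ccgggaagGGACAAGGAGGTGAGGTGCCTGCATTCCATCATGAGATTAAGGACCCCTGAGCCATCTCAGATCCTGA
Nat8f7: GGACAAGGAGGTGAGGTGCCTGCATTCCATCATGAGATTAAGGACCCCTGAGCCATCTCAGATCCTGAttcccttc

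Nat8f4 stands between Nat8f2 and Nat8f1 in the same cluster of 209.0 kb on chromosome 6. It had 4.13, 4.88, 7 and 4.33 TPM in PBS and 10.3, 6.2, 7.73 and 8.62 with cisplatin, and these groups overlapped. The change of 0.60 ± 0.19 (SE; adjusted p = 0.0103) was called by limma, but not after median-of-ratios scaling (0.33, adjusted p = 0.0944) or without PBS library 1 and cisplatin libraries 1 and 3 (0.40, adjusted p = 0.18). Its share of summed NAT8 TPM was 0.41% in PBS and 9.21% with cisplatin. Bases -120 to -1 before a RefSeq start of Nat8f4 (chr6:85902534-85902653, minus strand, GRCm38.p6) are shown because Nat8f4 was the family's only gene with a match to TGACNNNGC, the core of the antioxidant response element (ARE), which is in capitals.
Nat8f4: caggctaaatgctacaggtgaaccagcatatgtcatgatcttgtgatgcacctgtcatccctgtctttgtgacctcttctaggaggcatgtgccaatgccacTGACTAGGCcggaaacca

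**Figure D3:**
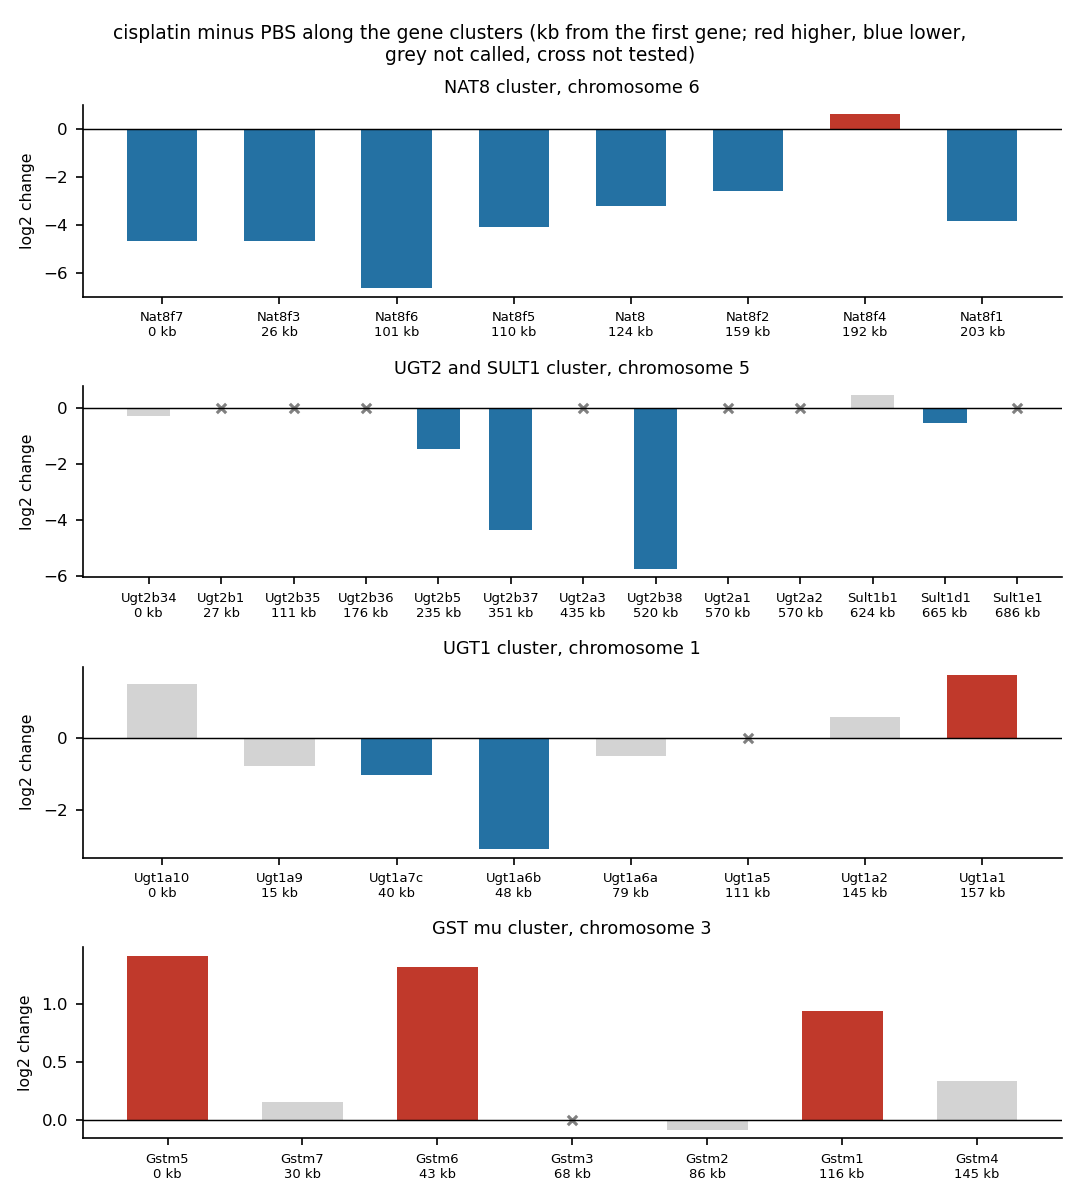
Difference of log2(TPM + 1), cisplatin minus PBS, of the genes of the NAT8, UGT2 with SULT1, UGT1 and GST mu clusters as bars in chromosome order, each labelled with its distance in kb from the first gene, with a cross for a gene not tested. In the NAT8 cluster 7 genes lie between -6.64 and -2.6 and Nat8f4 lies at 0.60.

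Among the UGT2 genes, which glucuronidate steroids, bile acids and many drugs, 3 of 4 tested genes fell with cisplatin. Ugt2b38 made up 90.01% of summed UGT2 TPM in PBS. Its TPM was 525, 469, 491 and 569 in PBS and 7.17, 8.87, 11.1 and 7.57 with cisplatin, and 414, 357, 316 and 509 with NMN and 343, 314, 301 and 414 with NR. Cisplatin changed it by -5.74 ± 0.15 (SE; adjusted p = 2.56e-15) by limma. All precursor libraries lay far above cisplatin, and of these only NMN library 4 reached the PBS range.

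Ugt2b37 had 38.7, 44.6, 58.3 and 50.4 TPM in PBS and 2.23, 1.03, 1.18 and 1.24 with cisplatin (-4.35 ± 0.17 SE, limma adjusted p = 6.35e-13). Ugt2b5, at 2.02 ± 0.515 TPM (SD, n = 4) in PBS, fell by 1.47 on the log2 scale and is 97% identical to Ugt2b38 in coding sequence, so its reads are uncertain. Ugt2b34 was not called. Its TPM was 5.37, 6.01, 6.23 and 7.63 in PBS, 9.52, 4.06, 3.87 and 3.88 with cisplatin alone, 7.74, 11.8, 9.5 and 9.85 with NMN and 15, 10.5, 9.59 and 13.2 with NR, and the change with cisplatin was -0.28 ± 0.22 (SE; adjusted p = 0.286) by limma. Cisplatin library 1 was the highest of its group and lay above all PBS libraries. Ugt2b34 was called lower after median-of-ratios scaling (-0.55, adjusted p = 0.0243) and without cisplatin library 1 (-0.56, adjusted p = 0.0115).

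The 3 UGT2 genes that fell are 94.1% to 97% identical in coding sequence and carry related sequence just before the start. Their RefSeq promoters are 73% to 85.2% identical in pairs. Promoters of the other UGT2 genes, such as Ugt2b34, were not compared, so the likeness is not shown to be particular to genes that fell. Bases -140 to -20 are shown (GRCm38.p6, minus strand) at chr5:87424223-87424343, chr5:87254808-87254928 and chr5:87140360-87140480, with the longest run common to all 3, 49 bases, in capitals.
Ugt2b38: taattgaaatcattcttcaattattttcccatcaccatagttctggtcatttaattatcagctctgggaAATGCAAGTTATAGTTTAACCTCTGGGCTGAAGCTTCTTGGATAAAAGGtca
Ugt2b37: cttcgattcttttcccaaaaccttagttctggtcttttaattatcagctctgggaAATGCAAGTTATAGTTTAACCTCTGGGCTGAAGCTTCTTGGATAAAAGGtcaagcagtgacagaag
Ugt2b5: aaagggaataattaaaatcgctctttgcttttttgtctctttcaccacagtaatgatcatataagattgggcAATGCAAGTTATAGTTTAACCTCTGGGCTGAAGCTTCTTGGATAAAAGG

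Both UGT3 genes fell. UGT3 enzymes differ from other UGTs in the sugar they transfer, which is N-acetylglucosamine for UGT3A1. Ugt3a1 had 187, 132, 237 and 239.9 TPM in PBS, 4.01, 5.57, 3.36 and 8.49 with cisplatin alone, 128, 97.9, 149 and 197 with NMN and 107, 85.6, 133 and 187 with NR. By limma its change with cisplatin was -5.00 ± 0.28 (SE; adjusted p = 1.01e-10), and the precursor groups overlapped PBS. Ugt3a2 had 540.3, 394, 582 and 664 TPM in PBS and 26.9, 57.2, 38.1 and 56.1 with cisplatin (-3.62 ± 0.22 SE, limma adjusted p = 3.19e-10).

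The UGT1 genes share their last exons and differ in the first, and in GENCODE they have 1311 exonic bases in common, so values for single UGT1 genes are uncertain. Of 7 tested genes, 2 fell, 1 was called higher and 4 were not called. Ugt1a7c held 66.5% of summed UGT1 TPM in PBS, with 171, 127, 157 and 236 TPM there and 95.2, 86.6, 75.1 and 72 with cisplatin (-1.04 ± 0.22 SE, limma adjusted p = 0.000558), and these groups did not overlap. Ugt1a6b had 11.7, 12.6, 13.8 and 8.92 TPM in PBS and 1.92, 0.59, 0 and 0 with cisplatin (-3.1 ± 0.47 SE, limma adjusted p = 2.5e-05).

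Ugt1a1 encodes the enzyme that glucuronidates bilirubin. It had 0, 1.37, 6.37 and 2.24 TPM in PBS and 10.2, 14.6, 3.97 and 7.51 with cisplatin, and 4.79, 4.18, 10.7 and 0.85 with NMN and 5.88, 6.6, 15.2 and 9.2 with NR. Limma gave a cisplatin change of 1.76 ± 0.59 (SE; adjusted p = 0.0171), but all groups overlapped, and the call was lost without PBS library 1 (1.27, adjusted p = 0.0556) or cisplatin library 2 (1.51, adjusted p = 0.0521). Ugt1a10 spread widely in PBS, with 3.28, 65.5, 53.4 and 8.79 TPM, and had 44.6, 47.5, 58.5 and 74.6 with cisplatin (1.51 ± 0.72 SE, limma adjusted p = 0.0875). It was called higher without PBS library 2 (2.09, adjusted p = 0.0178) or PBS library 3 (2.00, adjusted p = 0.0295). Ugt1a2, Ugt1a6a and Ugt1a9 were not called, with differences of 0.58, -0.49 and -0.78. The 8 UGT1 genes summed into 1 feature had 232 to 284 TPM in PBS and 163 to 190.2 with cisplatin, and this feature was called lower (log2 change -0.55, adjusted p = 4.5e-05, limma).

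Of the 4 GST alpha genes, which also reduce lipid peroxides, 2 rose with cisplatin and 2 were not called. Gsta1 had 0.62, 1.26, 2.65 and 0.11 TPM in PBS and 128, 124, 128 and 157 with cisplatin, and 33.9, 48.8, 54.9 and 44 with NMN and 52.6, 38.8, 56.3 and 41.6 with NR. The 3 treated groups were separated from PBS and both precursor groups lay below cisplatin. The change with cisplatin was 6.1 ± 0.26 (SE; adjusted p = 2.56e-12) by limma, the largest rise among the 49 genes. Gsta1 held 0.282% of summed GST alpha TPM in PBS and 22% with cisplatin.

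Gsta2, 97.6% identical to Gsta1 in coding sequence, was not called. Its TPM was 195, 349, 302 and 283 in PBS, 319.7, 328, 311 and 302 with cisplatin alone, 293, 424, 418 and 396 with NMN and 420.2, 440.3, 527 and 437 with NR. By limma its difference with cisplatin was 0.19 ± 0.15 (SE; adjusted p = 0.297), and after median-of-ratios scaling it was negative, also without a call. Reads of the pair can be split wrongly, so the values of each gene alone are uncertain. As deposited, Gsta1 TPM was 0.0388% to 0.877% of Gsta2 TPM in PBS and 37.9% to 52.0% with cisplatin. This ratio rests on the same split and cannot check it. Summed, the pair rose (0.69, adjusted p = 0.000678, limma).

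Gsta4, which acts on the lipid peroxidation product 4-hydroxynonenal, had 28.2, 39.5, 33 and 31 TPM in PBS and 92.5, 64.6, 70.9 and 79.4 with cisplatin (1.2 ± 0.12 SE, limma adjusted p = 1.55e-07), with no overlap. Gsta3 had 86.1 ± 11.2 TPM (SD, n = 4) in PBS and 81.7 ± 4.31 with cisplatin, and was not called, except as lower after median-of-ratios scaling (-0.38, adjusted p = 0.00998). Gsta1 and Gsta2 lie on opposite strands of chromosome 9, and their RefSeq promoters are 71.4% identical. Bases -150 to -24 are shown for the contrast between the copies (GRCm38.p6, chr9:78230519-78230645 on the plus and chr9:78347169-78347295 on the minus strand), with the longest shared run, 29 bases, in capitals.
Gsta1: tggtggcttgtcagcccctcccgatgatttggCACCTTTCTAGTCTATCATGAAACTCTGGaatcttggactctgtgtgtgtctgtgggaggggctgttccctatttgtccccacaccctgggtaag
Gsta2: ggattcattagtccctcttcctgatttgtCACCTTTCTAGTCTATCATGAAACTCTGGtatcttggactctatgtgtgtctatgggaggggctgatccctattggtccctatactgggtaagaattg

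Of 6 tested GST mu genes, 3 rose and none fell. Gstm1, the most abundant, had 402, 512, 466 and 411 TPM in PBS and 663, 912, 943 and 949 with cisplatin (0.94 ± 0.15 SE, limma adjusted p = 2.8e-05), and cisplatin library 1 was the lowest of its group but above PBS. Gstm5 had 133, 189, 158 and 147 TPM in PBS, 422, 421, 431 and 393 with cisplatin alone, 302, 319.8, 329 and 252 with NMN and 305, 364, 364 and 347 with NR. By limma its change with cisplatin was 1.42 ± 0.11 (SE; adjusted p = 4.83e-09), and both precursor groups lay between PBS and cisplatin without touching either.

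Gstm6 was low, with 1.61, 0.94, 1.94 and 2.02 TPM in PBS and 6.47, 6.15, 6.61 and 3.32 with cisplatin (1.32 ± 0.28 SE, limma adjusted p = 0.000524). Gstm4, Gstm7 and Gstm2 were not called, with differences of 0.33, 0.15 and -0.09. Exons of Gstm5 overlap an antisense gene, 4933431E20Rik, over 13.9% of their bases. That gene had a mean TPM of 8.65 in PBS and 3.34 with cisplatin. Whether its reads add to those of Gstm5 was not tested. Bases -200 to -34 of the Gstm5 promoter (GRCm38.p6, chr3:107895654-107895820, plus strand) are shown because Gstm5 was the only one of these genes with matches to both the AP-1 motif TGANTCA and the ARE core, each in capitals.
Gstm5: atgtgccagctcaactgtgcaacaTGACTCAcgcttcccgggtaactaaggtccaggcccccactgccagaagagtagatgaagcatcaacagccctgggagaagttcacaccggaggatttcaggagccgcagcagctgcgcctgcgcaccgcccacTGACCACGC

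All 3 GST pi genes were called higher. Gstp1, an abundant cytosolic GST, had 397, 506, 485 and 419 TPM in PBS, 770.5, 739.7, 862 and 718 with cisplatin alone, 494, 525, 531 and 464 with NMN and 464, 545, 586 and 491 with NR. Limma gave a cisplatin change of 0.78 ± 0.10 (SE; adjusted p = 3.6e-06), and the cisplatin libraries stood above all others. Gstp3 had 0.27, 1.09, 1.06 and 0.78 TPM in PBS and 16.6, 13.8, 14.8 and 18.9 with cisplatin (3.26 ± 0.30 SE, limma adjusted p = 4.2e-08).

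Gstp2 had 8.43, 6.81, 12.1 and 4.81 TPM in PBS and 11.6, 12.5, 17.6 and 36.3 with cisplatin, with overlap, and is 98.1% identical to Gstp1 in coding sequence, so its reads are uncertain. Its change of 1.1 ± 0.36 (SE; adjusted p = 0.0146) was called by limma, but not after median-of-ratios scaling (0.81, adjusted p = 0.0667) or without cisplatin library 4 (0.76, adjusted p = 0.0611) or PBS library 4 (0.91, adjusted p = 0.0549). The 3 genes lie within 24.2 kb on chromosome 19. Bases -120 to -68 of Gstp1 and Gstp2 are shown because both hold the same AP-1 match, in capitals, while Gstp3 held none. They lie at chr19:4037980-4038032 and chr19:4042289-4042341 (GRCm38.p6, minus strand).
Gstp1: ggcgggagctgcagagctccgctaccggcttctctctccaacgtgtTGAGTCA
Gstp2: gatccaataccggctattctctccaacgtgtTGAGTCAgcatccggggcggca

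The remaining GST classes were mixed. Gstk1, a mitochondrial and peroxisomal GST, fell from 83.3, 110.5, 91.4 and 95.3 TPM in PBS to 27.4, 33.8, 31.4 and 37.5 with cisplatin (-1.52 ± 0.13 SE, limma adjusted p = 8.36e-09). Gstz1, which isomerises maleylacetoacetate in tyrosine breakdown, fell from 255, 270.1, 311 and 287 to 84.1, 145, 92.9 and 123 TPM (-1.36 ± 0.14 SE, limma adjusted p = 1.83e-07). Gsto1, a glutathione-dependent reductase, rose from 32.7, 52.2, 40.6 and 43.2 to 88.9, 70.3, 73.9 and 85.4 TPM (0.91 ± 0.13 SE, limma adjusted p = 7.44e-06). None of these 3 overlapped between the groups. Gsto2 was low and not called, at -0.31.

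Gstt2 was the only theta gene of 3 called, from 210.0, 232, 210.5 and 219 TPM in PBS to 149.7, 177, 161 and 174 with cisplatin (-0.40 ± 0.11 SE, limma adjusted p = 0.00423), and the call was lost without PBS library 1 and cisplatin libraries 1 and 3 (-0.32, adjusted p = 0.0707). Gstt1 and Gstt3 had differences of -0.08 and -0.24 and were not called, but were called lower after median-of-ratios scaling (-0.39, adjusted p = 0.0043 for Gstt1 and -0.55, adjusted p = 0.00129 for Gstt3). Gstt3 was also called lower without PBS library 1 (-0.35, adjusted p = 0.0349). Mgst1, a membrane GST that also reduces lipid peroxides, rose from 67.6, 78.3, 76 and 62.5 to 129, 131, 143 and 113 TPM (0.85 ± 0.13 SE, limma adjusted p = 2.63e-05). Mgst3 had 108 ± 9.27 TPM (SD, n = 4) in PBS and 105 ± 13.6 with cisplatin, and was called lower after median-of-ratios scaling (-0.35, adjusted p = 0.0129).

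Of 21 SULT genes only 6 were expressed enough to test, and of these 2 fell and 1 rose. Sult1d1, which sulfates catecholamines, held 80.2% of summed SULT TPM in PBS. It had 191, 196, 213 and 251 TPM in PBS, 134, 162, 129 and 170.0 with cisplatin alone, 169.8, 178, 197 and 216 with NMN and 182, 151, 174 and 227 with NR. The change with cisplatin was -0.51 ± 0.13 (SE; adjusted p = 0.00291) by limma, and the call was lost without PBS library 1 and cisplatin libraries 1 and 3 (-0.40, adjusted p = 0.0581).

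Sult1c2 had 24.4, 35, 33.3 and 31.9 TPM in PBS, 6.78, 5.85, 5.44 and 9.85 with cisplatin alone, 21.2, 26.8, 22.2 and 30.6 with NMN and 24.5, 24.7, 23.8 and 23.1 with NR (-2.03 ± 0.16 SE, limma adjusted p = 6.29e-09, with cisplatin). Its cisplatin libraries lay below all others. Sult2b1, which sulfates cholesterol, had 0.18, 0.25, 0 and 0.75 TPM in PBS and 2.94, 4.48, 2.16 and 4.28 with cisplatin (1.78 ± 0.35 SE, limma adjusted p = 0.000249), all low values without overlap. Sult1d1 lies in the same chromosome 5 cluster as Ugt2b38, where its change was -0.51 beside -5.74. Sult1a1, Sult1b1 and Sult5a1 were not called, with differences of -0.46, 0.48 and -0.10. Sult1a1 was called lower after median-of-ratios scaling (-0.75, adjusted p = 0.0303) and Sult1b1 higher without PBS library 3 (0.62, adjusted p = 0.0327).

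Promoter motifs were counted in the RefSeq promoters of 66 of the 75 genes, on both strands, as a description of letters only. The ARE core TGACNNNGC, the motif of NRF2, occurred in 3 of 12 genes called higher with cisplatin (Gstm5, Mgst1 and Nat8f4), in 0 of 16 called lower and in 2 of 17 not called, against 11.5% of 27025 genes. TGANTCA, the AP-1 motif, occurred in 4 of 12 (Gstm5, Gstp1, Gstp2 and Sult2b1), 2 of 16 (Ugt2b37 and Ugt2b38) and 1 of 17 (Ugt1a6a), against 7.82% of genes. The matches of Ugt2b37 and Ugt2b38 begin at bases -180 and -166, outside the stretch shown for them. Gsta1 and Gstp3, which were called higher with cisplatin, matched neither the ARE core nor TGANTCA. The HNF1 motif GTTAAT occurred in 1 of 12, 4 of 16 and 5 of 17, against 7.49%, and the HNF4 motif CAAAGTCCA in none, against 0.451%. The ARE core and AP-1 motif can overlap in their first letters.

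Genes that supply or follow these enzymes were counted in the same way, beside 40.7% of all tested genes called higher and 18.6% called lower with cisplatin. For glutathione supply, 3 of 13 tested genes rose with cisplatin and 7 fell, with a median log2 change of -0.37 where that of all genes was 0.27. Gclc, the catalytic subunit of the first enzyme of glutathione synthesis, went from 68.7 ± 20.2 TPM (SD, n = 4) to 217 ± 61.9 (1.64 ± 0.24 SE, limma adjusted p = 1.09e-05), whereas Ggct fell by 1.32 and Cbs by 1.34 on the log2 scale. Of 13 tested genes for the mercapturate steps after conjugation, 10 fell and none rose (median -1.11). Ggt1, the γ-glutamyltransferase of the brush border, went from 1078 ± 85.1 to 235 ± 52.8 TPM (-2.22 ± 0.13 SE, limma adjusted p = 1.24e-10). Acy3, which deacetylates mercapturates, fell by 3.42, the dipeptidase Dpep1 by 4.13 and Agxt2 by 2.36. Kyat1, a cysteine conjugate β-lyase, was not called (0.23 ± 0.17 SE, limma adjusted p = 0.262).

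For UDP-glucuronate supply and glucuronide cleavage, 4 of 10 genes rose and 4 fell (median 0.21, where that of all genes was 0.27). The share that rose is near the 40.7% of all genes. Ugdh, which makes UDP-glucuronate, went from 43.2 ± 10.8 TPM (SD, n = 4) to 80.7 ± 7.65 (0.91 ± 0.15 SE, limma adjusted p = 4.31e-05). Miox, which was listed here but breaks inositol down to free glucuronate and does not make UDP-glucuronate, fell by 4.81 on the log2 scale. For sulfate supply and removal, 1 of 12 rose and 9 fell (median -1.18), among them the PAPS synthase Papss2 (-1.69 ± 0.15 SE, limma adjusted p = 2.86e-08), the sulfate transporter Slc26a1 (-1.88) and sulfite oxidase Suox (-1.79). Of 11 tested genes for other conjugations 2 rose and 8 fell (median -1.73), with Inmt at -5.93, Acsm2 at -4.45 and Acsm1 at -3.19. Of 14 tested regulators 5 rose and 3 fell (median 0.30), which is near the shares and the median of all genes. Nfe2l2, which encodes NRF2, rose by 1.5, its partner Maff rose by 4.34, and Hnf4a, a regulator of proximal tubule genes, fell by 2.12.

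With NMN before cisplatin, 20 of the 49 genes were called higher and 12 lower than with cisplatin alone (limma), against 15.1% and 34.0% of all genes. With NR, 20 were called higher and 8 lower, against 14.4% and 32.2%. Either call was made for 49.1% of all genes with NMN and 46.6% with NR. Under median-of-ratios scaling the counts were 24 and 8 with NMN, a higher share of 75.0% in place of 62.5%, and 22 and 7 with NR, and the all-gene median for NMN went from -0.23 to -0.02. Groups did not overlap for 17 higher and 8 lower genes with NMN (13.4% and 30.9% of all genes, 44.3% together) and for 19 and 9 with NR (12.7% and 29.1%, 41.8% together). These comparisons share the cisplatin libraries with each other and with the comparison to PBS, so opposite signs between them are partly built in.

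The genes with the largest differences were those of the NAT8, UGT2 and UGT3 families. Nat8f6 was higher by 6.23 with NMN and by 5.98 with NR, Ugt2b38 by 5.36 and 5.16, and Ugt3a1 by 4.52 and 4.35. For Nat8 the differences were 2.96 ± 0.15 (SE; adjusted p = 3.48e-11) with NMN and 2.71 ± 0.15 (SE; adjusted p = 1.36e-10) with NR by limma. Nat8f4 was not called with either. All 7 NAT8 genes, 3 UGT2 genes and 2 UGT3 genes that fell with cisplatin were called higher with both precursors.

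Among GSTs, Gstp3 was lower by 2.34 with NMN and 1.77 with NR, and Gsta1 by 1.56 and 1.49. Gstp1 was lower by 0.62 and 0.57, and Gstm1 by 0.75 and 0.78. Gstm5 was lower with NMN (-0.48 ± 0.11 SE, limma adjusted p = 0.00184) and was not called with NR (-0.28 ± 0.11 SE, limma adjusted p = 0.0524). With NR, Gstm5 was called lower at the same log2 change when only the groups compared were fitted (-0.28, adjusted p = 0.0331) and with a minimum of 5 TPM (-0.28, adjusted p = 0.0466). The NMN call of Gstm5 was lost after median-of-ratios scaling (-0.23, adjusted p = 0.0722). Mgst1 was called lower with NMN (-0.37 ± 0.13 SE, limma adjusted p = 0.0285) and not with NR (-0.21 ± 0.13 SE, limma adjusted p = 0.203). That Mgst1 call was lost without any 1 of 6 libraries, cisplatin 1, 2 or 3 or NMN 1, 2 or 4 (adjusted p 0.0527 to 0.0892).

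Ugt2b34 and Gsta2 were called higher with NR than both cisplatin and PBS. With NMN, Ugt2b34 was also called higher than cisplatin (0.83). Against PBS it was not called with NMN (0.55), although all NMN libraries (7.74 to 11.84 TPM) lay above all PBS libraries (5.37 to 7.63 TPM). Against cisplatin Gsta2 differed by 0.53 ± 0.15 (SE; adjusted p = 0.00816) with NR and by 0.27 ± 0.15 (SE; adjusted p = 0.155) with NMN, by limma, and the second was not called. It was called after median-of-ratios scaling (0.51, adjusted p = 0.00154) and without NMN library 1 (0.39, adjusted p = 0.0419). Against PBS, Gsta2 was higher by 0.72 and Ugt2b34 by 0.83 with NR. With NMN, Gsta2 was 0.45 ± 0.15 (SE; adjusted p = 0.0975) against PBS and was called without PBS library 2 (0.57, adjusted p = 0.0307) or NMN library 1 (0.58, adjusted p = 0.0296). The call of Ugt2b34 against PBS was lost without PBS library 1, NR library 1 or NR library 4 (adjusted p 0.0604 to 0.0818).

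Some smaller differences from cisplatin passed the test with 1 precursor and missed it with the other. With NMN these were Gstm6 (-1.01 ± 0.28 SE, limma adjusted p = 0.00605), Gstt2 (0.35 ± 0.11 SE, limma adjusted p = 0.0125), Sult1d1 at 0.36, Gstm4 at -0.37 and Sult1b1 at -0.57. With NR they were Gsta3 at 0.30 and Gstm7 at -0.37. Leaving out 1 library ended the call of Sult1d1 (cisplatin 1 or 3, NMN 3 or 4; adjusted p 0.0699 to 0.107), Gstm4 (cisplatin 2, 3 or 4, NMN 1, 2 or 4; 0.0632 to 0.136) and Sult1b1 (cisplatin 1, 2 or 4, NMN 1, 2 or 4; 0.0607 to 0.145). It also ended those of Gsta3 (any cisplatin library, NR 2, 3 or 4; 0.0526 to 0.098) and Gstm7 (cisplatin 1, 3 or 4, NR 1, 2 or 3; 0.0557 to 0.103). Median-of-ratios scaling ended those of Gstm4 (-0.15, adjusted p = 0.305), Sult1b1 (-0.37, adjusted p = 0.194), Gstm7 (-0.18, adjusted p = 0.286) and Mgst1 (-0.13, adjusted p = 0.425). The same scaling added calls with the other precursor, namely Gstt2 (0.42, adjusted p = 0.0129) and Sult1d1 (0.51, adjusted p = 0.00583) with NR and Gsta3 (0.41, adjusted p = 0.00823) with NMN. Leaving out 1 library also added NR calls, for Gstt2 without NR 1 (adjusted p 0.0135), Sult1d1 without cisplatin 4 or NR 2 (0.0341 to 0.0496), Gstm6 without cisplatin 4 (0.0487) and Sult1b1 without NR 4 (0.0181). The difference between NMN and NR was not called for any of these genes.

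**Figure D4:**
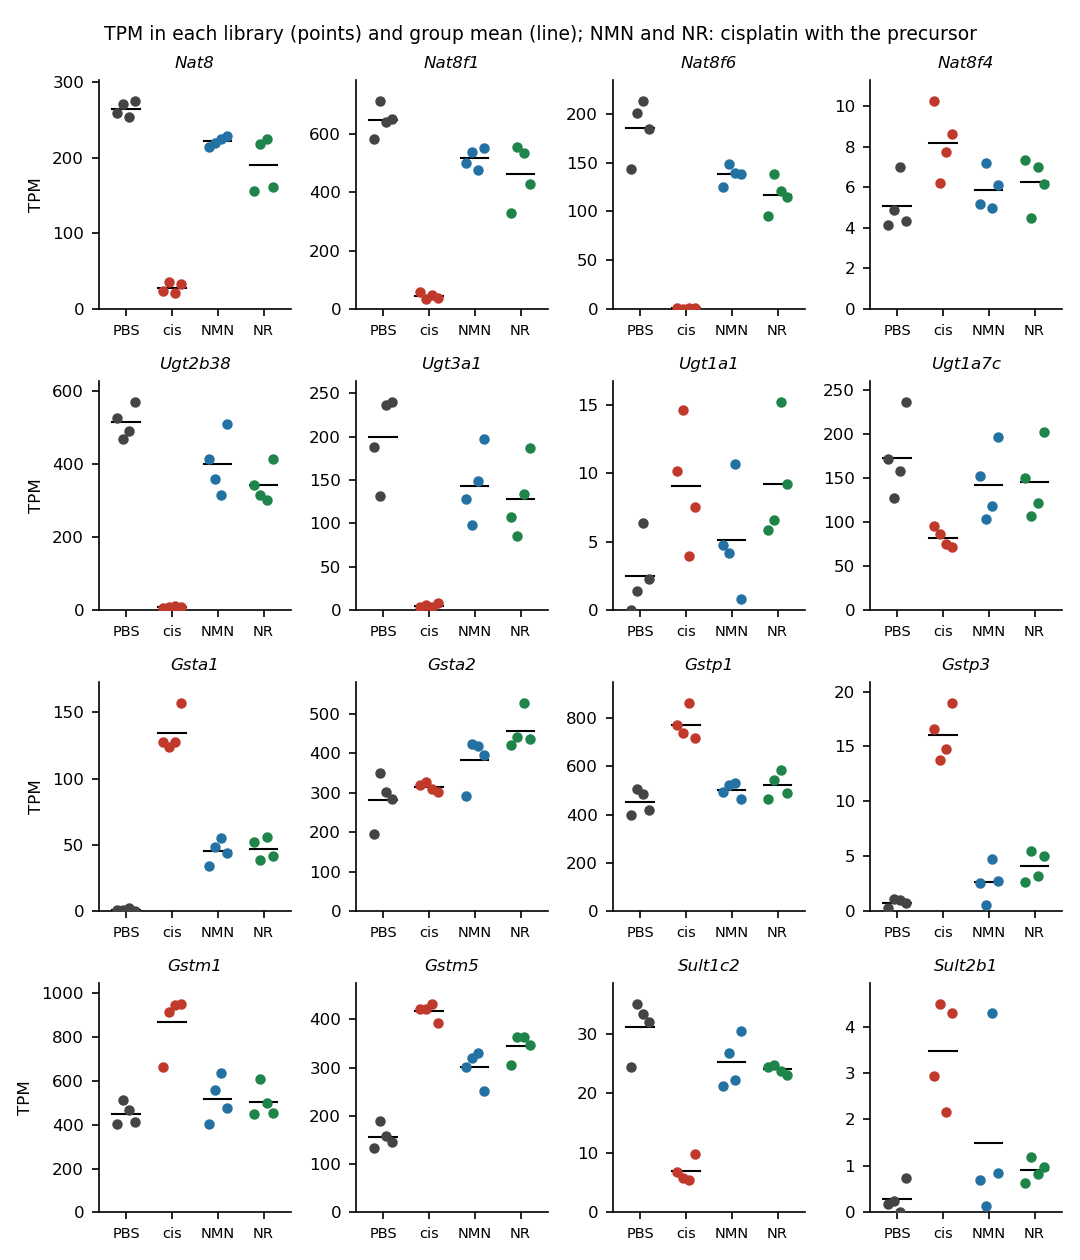
TPM of 16 genes in each of the 16 libraries, with 1 point per library and a line at the group mean. Nat8, Nat8f1, Nat8f6, Ugt2b38 and Ugt3a1 are low in all 4 cisplatin libraries, Gsta1 is low in all 4 PBS libraries, and Gstm5 with NMN or NR lies between PBS and cisplatin.

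Against PBS, few differences were called with NMN and more with NR. With NMN, 3 of 49 genes were called higher and 0 lower (limma; 13 had an unadjusted p under 0.05), against 5.89% and 0.116% of all genes. With NR, 8 were called higher and 5 lower, against 8.79% and 1.21%. After median-of-ratios scaling the counts were 2 and 3 with NMN, a higher share of 40% in place of 100%, and 9 and 9 with NR, 50% in place of 61.5%. Groups did not overlap for 5 higher and 3 lower genes with NMN (8.77% and 1.46% of all genes) and for 9 and 9 with NR (11.8% and 2.99%). Both comparisons share the PBS libraries, and no gene was called between NMN and NR.

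Of the 13 genes that were higher with cisplatin, Gsta1, Gstm5 and Mgst1 were also called above PBS with NMN, and these 3 with Gsta4, Gsto1 and Gstp3 were with NR. Gsta1 was 4.54 ± 0.26 (SE; adjusted p = 2.67e-09) above PBS with NMN and 4.61 ± 0.26 (SE; adjusted p = 1.56e-09) with NR by limma. Gsta1 and its near-copy Gsta2 summed were 0.61 (adjusted p = 0.0178) above PBS with NMN and 0.85 (adjusted p = 0.000779) with NR by limma. Gstm5 was 0.94 ± 0.11 (SE; adjusted p = 1.83e-05) above PBS with NMN and 1.14 ± 0.11 (SE; adjusted p = 1.21e-06) with NR, and its share of summed GST mu TPM was 23.5% in PBS, 31.2% with cisplatin alone, 34.5% with NMN and 38.2% with NR. Mgst1 had 87.5, 97.5, 127 and 89.1 TPM with NMN (0.48 ± 0.13 SE, limma adjusted p = 0.0392, against PBS), and that call was lost without PBS library 1 (0.46, adjusted p = 0.109) or PBS library 4 (0.42, adjusted p = 0.135), NMN library 2 (0.49, adjusted p = 0.0785) or NMN library 3 (0.36, adjusted p = 0.18), and after median-of-ratios scaling (0.41, adjusted p = 0.0664).

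Of the 19 genes that fell with cisplatin, 0 were called below PBS with NMN and 5 were with NR: Nat8, Nat8f6, Nat8f7, Ugt2b37 and Ugt2b38. Nat8f6 was -0.66 ± 0.16 (SE; adjusted p = 0.00993) with NR and -0.41 ± 0.16 (SE; adjusted p = 0.164) with NMN by limma. Ugt2b38 was -0.59 ± 0.15 (SE; adjusted p = 0.0159) with NR and -0.38 ± 0.15 (SE; adjusted p = 0.186) with NMN. Other settings of the limma fit did call some of these genes below PBS with NMN. After median-of-ratios scaling these were Nat8f6 (-0.49, adjusted p = 0.0496), Nat8f7 (-0.70, adjusted p = 0.02665) and Ugt2b37 (-0.57, adjusted p = 0.0346). Without NMN library 4 they were Ugt2b37 (-0.64, adjusted p = 0.0312) and Ugt2b38 (-0.51, adjusted p = 0.0445). With a pseudocount of 0.1, the NR calls of Nat8f6 (-0.66, adjusted p = 0.0632) and Nat8f7 (-0.81, adjusted p = 0.4478) were lost. The NR calls of 4 of the 5 genes rested on single libraries. That of Nat8 was lost without any 1 PBS library, NR library 1 or NR library 4 (adjusted p 0.0637 to 0.139), and that of Nat8f7 without PBS library 3 or NR library 1 (0.0658 to 0.0798). That of Ugt2b37 was lost without PBS library 3 or 4 or NR library 1 or 3 (0.0522 to 0.0759), and that of Ugt2b38 without PBS library 4 or NR library 3 (0.0563 to 0.0565). Among the higher genes, the NR call was lost for Gsta4 without PBS library 1 (0.052) and for Gsto1 without any 1 library of both groups except PBS library 2 (0.0517 to 0.0983). The summed proximal tubule markers were also lower than PBS in all NMN and NR libraries, with 2 and 8 of 15 markers called lower, and their part in these values was not tested. Without NR libraries 3 and 4, which were high in adipose markers, 3 genes were called higher and 0 lower than PBS with NR, from 2 NR libraries.

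**Figure D5:**
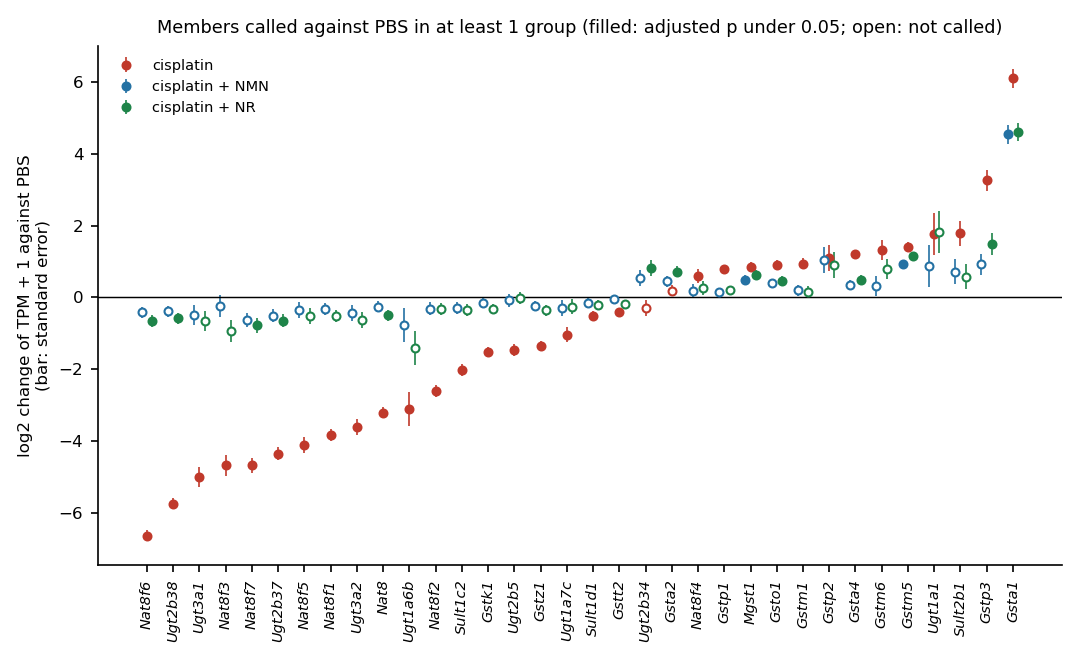
Difference of log2(TPM + 1) from PBS, with its standard error, for the genes called against PBS in at least 1 of the 3 groups, which share the PBS libraries, with filled points for called differences. Gsta1 lies at 6.1 with cisplatin alone, 4.54 with NMN and 4.61 with NR, and Nat8f6 at -6.64, -0.41 and -0.66.

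NMN and NR did not differ for any of the 49 genes at the threshold, nor for any of 12960 genes (limma, 0.0% called; 370 genes and 1 of the 49 had an unadjusted p under 0.05). That gene was Nat8f3, with 34.5, 39.7, 20.8 and 19.5 TPM with NMN and 9.21, 30.2, 17.2 and 15.4 with NR, a log2 difference of 0.69 with a 95% interval of 0.05 to 1.33 (limma adjusted p = 0.9999). None of the 49 had groups without overlap, against 0.64% of all genes that were higher with NMN and 0.995% that were lower. The missing calls do not show that the precursors act alike. For 41 of the 49 genes the 95% interval of the difference lay within 1 log2 unit of 0 in both directions, and for 8 it did not.

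The genes not tested were mostly SULT and UGT2 genes. Listed at 0 in every library were Sult1c1, Sult2a1, Sult2a2, Sult2a4, Sult2a5, Sult2a6, Sult2a7, Sult2a8, Sult3a1, Sult3a2, Ugt1a5, Ugt2a1 and Ugt2a2. The 13 low genes peaked between 0.1 TPM (Ugt2b1) and 1.72 TPM (Mgst2 in NR library 3). Nat8l, which makes N-acetylaspartate and belongs to the set by name only, reached 0.4 TPM. The Sult2a genes, 8 neighbours on chromosome 7, gave no gene that could be tested.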

How the data were processed

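The authors deposited 1 table of TPM values with 2 decimals for 23982 entries in 16 libraries, whose columns were mapped to groups by the sample titles. The submitters' processing notes name GRCm38 and mm10 as builds and, as tools, DESeq2 1.10.1, HTSeq 0.6.1, STAR 2.4.1d and Trim Galore. The sources used here do not give their roles, the annotation or whether counting used strand. The listed TPM sum to 860428 to 903678 per library, and depth is unknown.

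Entries sharing a symbol were summed. The 12960 genes that reached 1 TPM in 4 or more libraries were fitted on log2(TPM + 1) in R 4.3.3 (limma 3.58.1 and statmod 1.5.0). The model had a mean for each of the 4 groups, 12 residual degrees of freedom, and trend and robust moderation. P-values were adjusted over the 12960 genes by Benjamini-Hochberg, and a gene was called under 0.05. The fit was tested on simulated data. The number of comparisons was 6. Tables and figures used Python 3.11.15, pandas 2.3.3 and matplotlib 3.10.9.

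The members and all lists were chosen with earlier results of these data known. Genes were named by a rule: the 2 most abundant tested genes per family, the 8 largest rises and falls with cisplatin, any called between NMN and NR, the 5 largest that stayed called against PBS, and Gstp1, Nat8, Mgst1, Sult1d1 and Ugt1a1. Of each pathway list, the 3 genes with the smallest adjusted p and Gclc, Ggt1, Ugdh, Papss2 and Kyat1 were named, except 1 gene that is not reported here. Genes outside the rule, such as Nat8f4, Nat8f2, Ugt2b34, Ugt2b5, Ugt1a6b, Gsto1, Gstm2, Gstm4 and Gstm7, and the other members given by value, were added after their values were seen. Coding identity and overlaps come from GENCODE vM21, where 75 of 75 genes matched; RefSeq promoters matched 66. Alternatives were another pseudocount, minimum, scaling, variance model and set of samples, a replicate block, leaving out each library, 2 sets of libraries left out, and near-identical copies summed.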

Additional observations from a re-analysis of the deposited data

Results flagged for a closer look

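In 3 of 128 checks (32 named genes in 4 groups of 4 libraries), 1 library stood far from the other 3 of its group by Dixon's criterion for 4 values at the 95% level. Chance gives about 1 in 20. Gsta1 in cisplatin library 4 was at 156.96 TPM, with the others at 124.21 to 127.71. Gstm1 in cisplatin library 1 was at 663.1 TPM, with the others at 911.95 to 948.8. Gstm6 in cisplatin library 4 was at 3.32 TPM, with the others at 6.15 to 6.61.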

How the results depend on the processing

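Of 216 recomputed counts of called genes, 200 stayed within 1.5 times the reported count, among them all counts of the comparisons with cisplatin alone. The 16 that moved concern the comparisons with PBS. For NMN below PBS (0 genes), the count was 3 after median-of-ratios scaling, 1 with only the groups compared, 1 with the replicate block, 2 without PBS 1, cisplatin 1 and cisplatin 3, and 0 to 2 with each library left out. For NMN above PBS (3 genes), leaving out each library gave 2 to 6, the 6 without PBS library 2. For NR above PBS (8 genes), the count was 3 without NR 3 and NR 4, and 5 to 8 with each library left out, the 5 without PBS library 1. For NR below PBS (5 genes), it was 3 with a pseudocount of 0.1, 9 after median-of-ratios scaling, 9 with the replicate block, 0 without NR 3 and NR 4, and 2 to 8 with each library left out: 2 without PBS library 3, PBS library 4 or NR library 1, and 8 without NR library 2. The causes were not tested. Over all 49 tested genes and 6 comparisons, 123 of 4968 recomputed values lost a call and 74 gained one, copy sums left aside. Of these, 39 lost and 7 gained concern NMN against cisplatin, 24 and 13 NR against cisplatin, 41 and 21 NR against PBS, 9 and 15 NMN against PBS, and 10 and 18 cisplatin against PBS. The sign changed in 171 values, 49 of them between NMN and NR, and in none where the reported difference was called. The 8 UGT1 genes summed into 1 feature changed by -0.55 with cisplatin, where Ugt1a1 alone was at 1.76. Ugt1a1 made up 0.935% of that sum in PBS and 5.09% with cisplatin, so the 2 values describe different features. Leaving out sets of libraries and summing copies were chosen after seeing earlier results of these data. Nothing in the labels says that the replicate numbers pair the samples, so the reported fit used no block, and pairing is neither shown nor excluded. Same-numbered libraries correlated at -0.13 to 0.03 for PBS and cisplatin (other numbers -0.12 to 0.19), 0.05 to 0.27 for PBS and NR (-0.24 to 0.12), 0.05 to 0.29 for PBS and NMN (-0.28 to 0.08) and 0.07 to 0.23 for NMN and NR (-0.12 to 0.03). For NMN and NR, all 8 libraries correlated best with their own number, for PBS and NMN 7 and for PBS and NR 6, which is a hint from the data, not the design. With the block, Gstm5 and Sult1d1 were called with NR against cisplatin (adjusted p = 0.0228 and 0.0203) and Gsta2 with NMN against PBS (0.029).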
